A study of Mus musculus with 9 samples.

Results

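The interferon response genes described here are 41 gene names, the transcripts that cells raise when an interferon reaches them. Spots were taken as members when the gene name in the array files equalled one of these names, without regard to their values. Of the 41 names, 39 were present on the array, with 56 probes, among 27597 names in all. Irgm1 and Irf9 were not used as names in the files, and the older names of these genes, Irgm and Isgf3g, were. Irgm2 and Gbp2b are likewise listed under other names, Iigp2 and Gbp1. Genes with a probe that cleared the scanner software's background limit (set at 13 SD in the file headers) on 3 or more of the 9 arrays were tested, 37 members among 22700 genes in all.

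RNA levels had been measured on 9 single-colour arrays in 3 groups of 3. The iPax3 and iPax7 groups are mouse pluripotent stem cell-derived myogenic progenitors, named after the transcription factors Pax3 and Pax7, that were injected in vivo and taken out again as mononucleated cells, with NSG/NSGmdx4cv given as strain and the tibialis anterior muscle as tissue. Adult satellite cells, which are the stem cells resident in muscle, make up the third group and came from the tibialis anterior of Pax7-ZsGreen mice. The labels give an age of 3 months in all groups, and 1500 cells sorted from 3 mice per line in 3 independent experiments. They give no gate for the sort, and do not say whether animals were pooled on an array. NSG hosts are known to lack mature T, B and NK cells and to keep myeloid cells. Re-isolated and satellite cells were on separate array slides, scanned on other days, and came from other strains, so none of these can be told apart from the cell source. The p-values rest on the variation among these arrays, which may be partly technical.

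Interferons are secreted proteins that warn cells of infection. Type I interferons bind the receptor chains IFNAR1 and IFNAR2, and a complex that holds STAT2 and IRF9 then binds the interferon-stimulated response element (ISRE). Interferon gamma binds IFNGR1 and IFNGR2 and acts mainly through the gamma-activated site (GAS). The products of the induced genes block viral replication, attack intracellular microbes, draw in lymphocytes and switch the signal off again.

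The promoters of members are shown because the pathway reads these elements. In the RefSeq promoter table (build GRCm38.p6), 32 members had an entry. The 250 bases before the transcript start were searched on both strands for an ISRE-type run, GAAANNGAAA, and a GAS-type run, TTCNNNGAA. Overlapping matches of an element, and matches of both elements on the same bases, were kept. An ISRE-type match was present in 16 of the 32 members (50%) against 936 of 27025 genes in the table (3.46%), and a GAS-type match in 8 members (25%) against 2197 genes (8.13%). Both were present in 4 members and neither in 12. Counted over windows of 250 bases, several of which can belong to a gene, the shares with an ISRE-type match were 41% and 2.98%. A match is a description of these letters and not a measured site. The windows printed are chr5:92348890-92349139 on the minus strand for Cxcl10, chr4:156200819-156201068 on the minus strand for Isg15, chr19:34640639-34640888 on the plus strand for Ifit1, chr3:142620413-142620662 on the plus strand for Gbp2, chr16:10785537-10785786 on the minus strand for Socs1 and chr11:53769764-53770013 on the plus strand for Irf1. Capitals mark ISRE-type matches in the Cxcl10, Isg15, Ifit1, Gbp2 and Socs1 windows, and a GAS-type match in the Irf1 window, and each sequence runs 5′ to 3′ towards the start.
Cxcl10: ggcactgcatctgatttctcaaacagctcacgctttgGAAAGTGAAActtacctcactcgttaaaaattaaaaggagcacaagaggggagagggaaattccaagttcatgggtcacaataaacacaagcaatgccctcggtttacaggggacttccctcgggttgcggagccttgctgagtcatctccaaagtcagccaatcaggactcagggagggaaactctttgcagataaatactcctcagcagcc
Isg15: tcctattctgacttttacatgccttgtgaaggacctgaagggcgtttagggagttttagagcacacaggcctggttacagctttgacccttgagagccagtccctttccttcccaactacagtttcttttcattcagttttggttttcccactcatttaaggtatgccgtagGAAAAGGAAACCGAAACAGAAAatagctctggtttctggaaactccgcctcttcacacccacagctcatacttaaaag
Ifit1: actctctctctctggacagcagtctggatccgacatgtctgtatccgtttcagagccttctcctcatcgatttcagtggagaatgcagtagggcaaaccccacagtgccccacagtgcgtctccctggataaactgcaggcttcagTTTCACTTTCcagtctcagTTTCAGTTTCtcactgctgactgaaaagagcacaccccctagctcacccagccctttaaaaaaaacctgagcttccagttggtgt
Gbp2: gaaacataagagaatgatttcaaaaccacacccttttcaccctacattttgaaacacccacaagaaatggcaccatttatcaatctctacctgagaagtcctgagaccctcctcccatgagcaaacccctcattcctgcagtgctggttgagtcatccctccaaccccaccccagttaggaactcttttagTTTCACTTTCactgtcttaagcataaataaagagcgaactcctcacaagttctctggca
Socs1: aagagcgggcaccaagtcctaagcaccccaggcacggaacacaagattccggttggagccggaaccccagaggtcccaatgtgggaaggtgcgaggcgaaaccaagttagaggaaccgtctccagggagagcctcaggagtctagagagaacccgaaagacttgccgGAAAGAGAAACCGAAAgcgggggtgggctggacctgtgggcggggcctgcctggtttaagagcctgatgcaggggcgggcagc
Irf1: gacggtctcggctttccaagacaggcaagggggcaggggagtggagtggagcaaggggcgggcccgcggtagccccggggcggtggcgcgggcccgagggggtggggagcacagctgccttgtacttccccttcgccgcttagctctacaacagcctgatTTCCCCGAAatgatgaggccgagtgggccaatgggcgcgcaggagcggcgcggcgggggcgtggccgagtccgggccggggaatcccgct

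The matches began 213 bases before the start in Cxcl10, 78, 72 and 66 bases before it in Isg15, and 104 and 85 bases before it in Ifit1. In Gbp2 and Socs1 they began 59 bases and 83 and 77 bases before the start, and the match in Irf1 began 90 bases before it. The 15 tested members with an ISRE-type match had a median difference from satellite cells of 1.07 on the log2 scale in iPax3 and 1.36 in iPax7 cells. The 15 tested members with a promoter entry and no such match had medians of 0.45 and 0.56. These ranges overlapped widely, from −1.47 to 6.3 with a match and from −1.81 to 3.25 without one in iPax3 cells, and the difference between the sets was not tested.

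Levels are given as log2 of the processed signal relative to the 75th percentile of the same array, so that 0 is a fairly bright probe and values near −6 or below lie at the background. The share of probes well above background lay between 56.5% and 79.7% over the 9 arrays. Satellite replicate 1 had the highest share, and all 37 tested members were well above background on it, against 24 and 26 on satellite replicates 2 and 3. The re-isolated arrays had between 29 and 36 members above background. Satellite replicate 1 was scanned on another day than satellite replicates 2 and 3, and each was on its own slide. Over the genes tested it correlated at 0.634 and 0.621 with these, and between 0.606 and 0.717 with the re-isolated arrays. What sets it apart from the other satellite arrays was not tested. Over the 39 members on the array, 34 were above background on every iPax3 array, 28 on every iPax7 array and 22 on every satellite array. Cd274, which encodes the immune checkpoint ligand PD-L1, was above background on 0 arrays, and Gbp1 on 1 iPax7 array only.

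**Figure D1:**
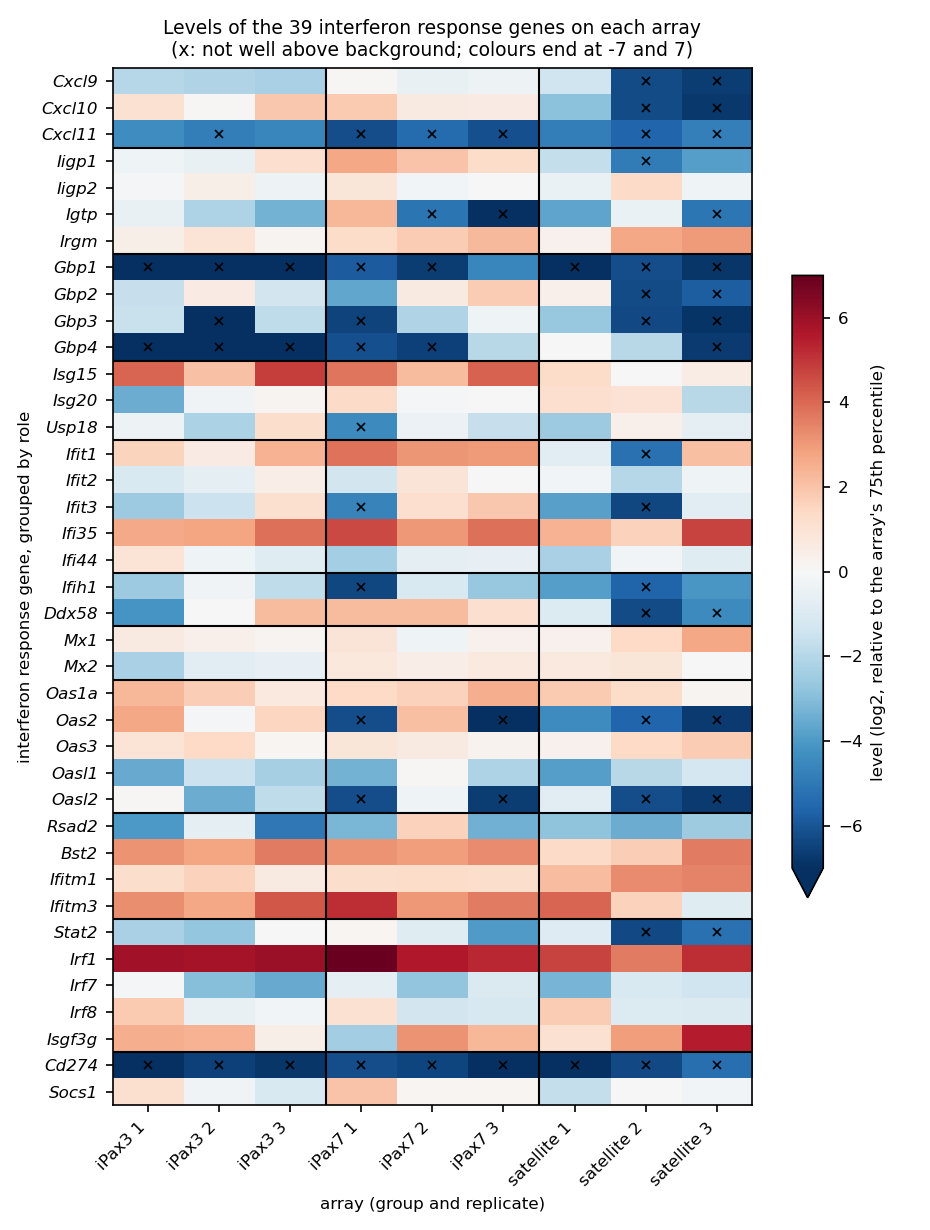
Level of each of the 39 interferon response genes (rows, grouped by role) on each of the 9 arrays (columns), in log2 relative to the array's 75th percentile; a cross marks a probe not well above background. The crosses are more frequent on satellite replicates 2 and 3 than on satellite replicate 1, where all 37 tested genes were above background.

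The first question was how the re-isolated cells of each line differed from satellite cells in these genes. Cxcl10, a chemokine, and Iigp1, a GTPase, were the members that passed the test, both higher in re-isolated cells, and most other members had higher estimates without passing it. In limma's test, with Benjamini-Hochberg adjustment over all 22700 genes, 0 of 37 members passed at an adjusted p of 0.05 in iPax3 cells, where 0.432% of all genes did (0.361% higher, 0.0705% lower) and 8 members had an unadjusted p under 0.05 (12.4% of all genes did). In iPax7 cells 1 of 37 passed, where 0.533% of all genes did (0.436% higher, 0.0969% lower) and 7 members had an unadjusted p under 0.05 (12.4%). With both lines combined 2 of 37 passed, where 1.04% of all genes did (0.802% higher, 0.238% lower) and 8 members had an unadjusted p under 0.05 (15.4%).

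The median difference of the 37 members was 0.54 in iPax3 cells, 0.75 in iPax7 cells and 0.57 in both lines combined. The same medians over all genes were −0.19, −0.15 and −0.16. Over the 21 members above background on all 9 arrays the median was −0.11 for iPax3, 0.41 for iPax7 and 0.22 for the combined lines. The iPax3 median was 0.14 with median scaling and 0.48 to 1.14 with an array left out. The estimate was higher than in satellite cells for 25, 26 and 26 of the 37 members, against 45.3%, 45.9% and 45.6% of all genes. All 3 arrays lay above all satellite arrays for 6 members in iPax3 cells (8.6% of all genes did) and for 8 in iPax7 cells (7.63%). They lay below for 3 members in iPax3 cells (10.4% of all genes) and for 1 in iPax7 cells (8.89%). With all 6 re-isolated arrays against the satellite arrays, 4 members lay above (4.14% of all genes), which were Cxcl10, Iigp1, Isg15 and Irf1, and 1 below (4.36%), Ifitm1. Since a probe that is at background in satellite cells could pass the filter only through the re-isolated arrays, these counts describe the members tested and do not stand for all members.

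**Figure D2:**
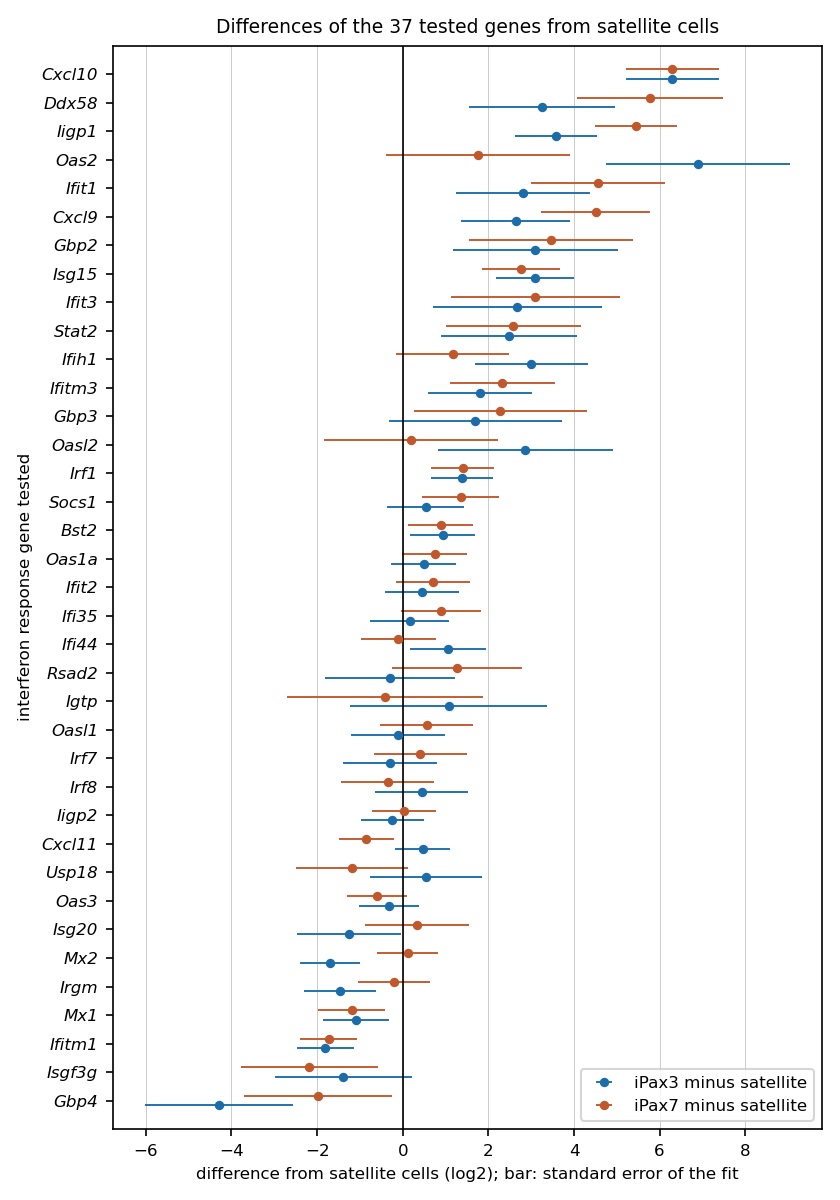
Difference from satellite cells of the 37 tested genes (rows, ordered by the difference with both lines combined), in log2, for iPax3 cells (blue) and iPax7 cells (orange); points are estimates of the fit and bars its standard errors. Cxcl10 stands at 6.3 in both lines, and most bars of the other genes are wide beside their distance from 0.

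The chemokines of the receptor CXCR3 draw activated T cells and NK cells towards tissue. Cxcl10, which is induced by both type I and type II interferon, read 1.09, 0.08 and 1.86 on the iPax3 arrays, 1.81, 0.65 and 0.57 on the iPax7 arrays and −2.87, −6.27 and −6.73 on the satellite arrays. All 6 re-isolated arrays lay above all satellite arrays, of which only replicate 1 was well above background. Cxcl10 rose in iPax7 cells by 6.3 ± 1.08 (SE, log2; adjusted p = 0.0474) and in both lines combined by 6.3 ± 0.93 (adjusted p = 0.0182). In iPax3 cells the estimate was also 6.3 ± 1.08, with an adjusted p of 0.0502 that missed the threshold. The combined call was lost without iPax3 replicate 1 (adjusted p = 0.0508) or 3 (0.0531), without satellite replicate 2 (0.0934) or 3 (0.0842), and with the slide (0.105) or scan day (0.108) as a random block, and the call in iPax7 cells was lost without any array other than satellite replicate 1 (0.0717 to 0.145). It was also lost in 7 of 11 other settings, which were normexp (0.115), median scaling (0.0586), no background filter (0.0523), the slide (0.123) or scan day (0.172) as a random block, the replicate block (0.0744) and a fit of only the groups compared (0.131). With normexp background correction the difference was 2.89 combined and 2.87 in iPax7 cells. The file places the Cxcl10 probe at chr5:93421955-93422014 of build mm8, on the minus strand.

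Cxcl9, which is induced mainly by interferon gamma, read −1.99, −2.12 and −2.29 on the iPax3 arrays, 0.09, −0.53 and −0.34 on the iPax7 arrays and −1.38, −6.27 and −6.67 on the satellite arrays. The iPax7 arrays lay above the other 6, while satellite replicate 1 lay above the iPax3 arrays. Its difference was 2.64 ± 1.27 in iPax3 cells (adjusted p = 0.43) and 4.51 ± 1.27 in iPax7 cells (adjusted p = 0.198), and neither passed. Only satellite replicate 1 was well above background among the satellite arrays, and with normexp these differences were 0.08 and 1.49. Without satellite replicate 1, Cxcl10, Cxcl9 and Iigp1 passed in each line, with Cxcl9 at 4.33 in iPax3 cells (adjusted p = 0.0178) and 6.21 in iPax7 cells (adjusted p = 0.00533). Cxcl11, the third of these chemokines, lay between −6.22 and −4.37 on all arrays and was above background on 2 iPax3 arrays, 0 iPax7 arrays and 1 satellite array.

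The immunity-related GTPases attack the vacuoles of intracellular parasites, and Iigp1 is one whose product loads onto such vacuoles. It read −0.29, −0.51 and 1.17 on the iPax3 arrays, 2.71, 2.01 and 1.28 on the iPax7 arrays and −1.65, −4.87 and −3.85 on the satellite arrays. The 3 groups did not overlap, with the iPax7 arrays highest and the satellite arrays lowest. The probe was well above background on all re-isolated arrays and on 2 of the 3 satellite arrays. With both lines combined Iigp1 rose by 4.51 ± 0.83 (adjusted p = 0.0435). In iPax7 cells the difference of 5.45 ± 0.96 had an adjusted p that rounds to 0.05 and lay just over the threshold, and in iPax3 cells it was 3.58 ± 0.96 (adjusted p = 0.177). The combined call held without satellite replicate 1 and was lost without any other single array (adjusted p between 0.0746 and 0.162) and with the slide (0.214) or scan day (0.225) as a random block. The combined difference was 2.59 (adjusted p = 0.0672) with normexp background correction. The combined call held in 5 of 10 other settings, and was also lost with median scaling and with the replicate block. With each probe tested on its own it missed the threshold (adjusted p = 0.0545).

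None of the 3 other tested GTPases of this family passed the test, and none had an unadjusted p under 0.05. Irgm encodes a regulator of other GTPases of this family. It read 0.41, 0.97 and 0.2 on the iPax3 arrays, 1.3, 1.79 and 2.26 on the iPax7 arrays and 0.3, 2.71 and 2.97 on the satellite arrays. Its difference was −1.47 ± 0.84 in iPax3 cells (adjusted p = 0.494) and −0.21 ± 0.84 in iPax7 cells (adjusted p = 0.942), while both of its other probes had higher estimates, and the sign of the difference turned with normexp (1.5 in iPax3 cells), quantile normalisation (2.26), the deposited table (1.9) and the mean of the probes (0.31). Iigp2 differed by −0.24 and 0.03 and Igtp by 1.07 and −0.41 in iPax3 and iPax7 cells, none of them past the test. Igtp varied most among the iPax7 arrays of all members, with an SD of 5.14.

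Guanylate-binding proteins coat bacteria and vacuoles in the cytosol. Gbp2 read −1.63, 0.55 and −1.31 on the iPax3 arrays, −3.66, 0.62 and 1.76 on the iPax7 arrays and 0.34, −6.26 and −5.76 on the satellite arrays, with 1 satellite array above background. Its combined difference of 3.28 ± 1.66 did not pass (adjusted p = 0.385). Gbp4 went the other way, with satellite values of −0.02, −1.94 and −6.71 and no iPax3 array above background. With iPax3 values raised to the lowest level above background on their arrays, Gbp4 was 5.01-fold lower in iPax3 cells. Only 2 satellite arrays were well above background, and replicate 3 was not, so this value is not a strict bound. The fitted difference of −4.29 ± 1.73 did not pass (adjusted p = 0.362). Gbp3 differed by 1.7 and 2.28 in the iPax3 and iPax7 lines.

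**Figure D3:**
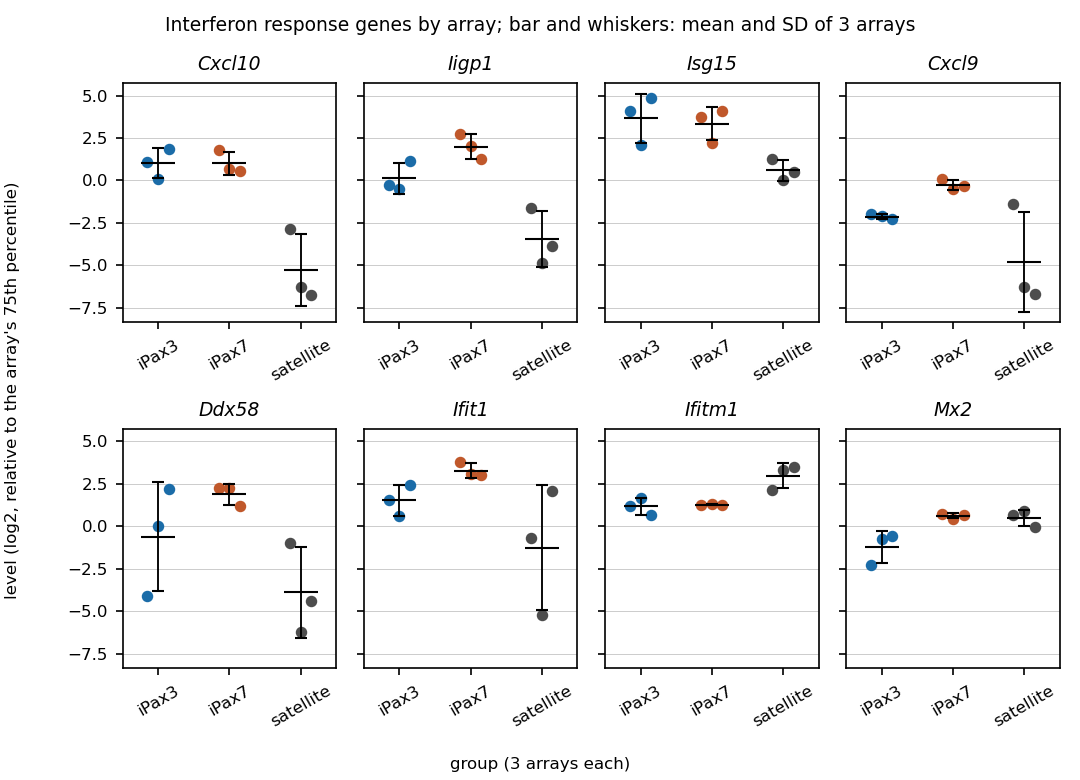
Levels of 8 interferon response genes on each array (points), in log2 relative to the array's 75th percentile, with the mean and SD of the 3 arrays of each group. Cxcl10, Iigp1 and Isg15 lie higher on all 6 re-isolated arrays than on the satellite arrays, Ifitm1 lies lower on all 6, and satellite replicate 1 is the highest satellite array for Cxcl10, Iigp1, Isg15, Cxcl9 and Ddx58.

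ISG15 is a ubiquitin-like protein that is attached to other proteins. Isg15 read 4.08, 2.07 and 4.85 on the iPax3 arrays, 3.72, 2.23 and 4.12 on the iPax7 arrays and 1.26, 0 and 0.51 on the satellite arrays. Every re-isolated array lay above every satellite array, and the probe was well above background on all 9. The differences of 3.08 ± 0.91 in iPax3 cells (adjusted p = 0.225), 2.77 ± 0.91 in iPax7 cells (adjusted p = 0.273) and 2.92 ± 0.79 combined (adjusted p = 0.145) did not pass. The file places this probe on chromosome 17 of mm8, while the Isg15 promoter of the RefSeq table is on chromosome 4, and whether it reads another copy was not tested. Usp18, whose product removes ISG15 and damps the type I receptor, differed by 0.54 and −1.18, and the exonuclease gene Isg20 by −1.26 and 0.33, in iPax3 and iPax7 cells.

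IFIT proteins bind foreign RNA and block its translation. Ifit1 read 1.56, 0.6 and 2.43 on the iPax3 arrays, 3.79, 3.07 and 2.99 on the iPax7 arrays and −0.72, −5.2 and 2.09 on the satellite arrays. Only the iPax7 arrays lay clear of the satellite arrays, and the difference of 4.56 ± 1.56 did not pass (adjusted p = 0.288). The 5 genes of this group, Ifit1, Ifit2, Ifit3, Ifi35 and Ifi44, all had higher combined estimates, from 0.48 to 3.68, and 0 of the 5 passed while 1 had an unadjusted p under 0.05. Ifi35 was above background throughout, between 1.6 and 4.75.

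The RNA sensors RIG-I and MDA5 detect viral RNA and are the products of Ddx58 and Ifih1. Ddx58 read −4.11, 0.01 and 2.22 on the iPax3 arrays, 2.24, 2.23 and 1.18 on the iPax7 arrays and −0.97, −6.24 and −4.43 on the satellite arrays. The iPax7 arrays lay above the satellite arrays and the iPax3 arrays overlapped them. The difference of 5.77 ± 1.71 in iPax7 cells did not pass (adjusted p = 0.223), and the 3 kept probes of Ddx58 ranged from −0.6 to 5.77 in that comparison. Ifih1 differed by 3 ± 1.32 in iPax3 cells (adjusted p = 0.399) and 1.17 ± 1.32 in iPax7 cells (adjusted p = 0.754), with both of its probes on the higher side.

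The Mx GTPases and the 2′-5′-oligoadenylate synthetases, which act through RNase L, are classical antiviral effectors. Mx2 read −2.28, −0.78 and −0.55 on the iPax3 arrays, 0.74, 0.45 and 0.66 on the iPax7 arrays and 0.67, 0.87 and −0.04 on the satellite arrays. The iPax3 arrays lay below all others, and the difference of −1.7 ± 0.71 from satellite cells did not pass (adjusted p = 0.371). Mx1 differed by −1.09 and −1.19 in iPax3 and iPax7 cells. Oas2 read 2.69, −0.16 and 1.49 on the iPax3 arrays, −6.21, 2.09 and −7.28 on the iPax7 arrays and −4.4, −5.55 and −6.71 on the satellite arrays.

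The iPax3 arrays lay above the satellite arrays for Oas2, and 1 of the 3 iPax7 arrays was well above background. Its difference in iPax3 cells was 6.89 ± 2.15 (adjusted p = 0.25), and it passed there only without iPax7 replicate 2 (adjusted p = 0.0438). Of the satellite arrays 1 was well above background, and the difference was 3.35 with normexp. The second Oas2 probe was above background on 1 array of each line. Oas1a, Oas3, Oasl1 and Oasl2 differed by between −0.33 and 2.86 in iPax3 cells and between −0.61 and 0.75 in iPax7 cells, with 0 called. By the probe with the highest mean, Oas1a, Oas3, Mx1 and Mx2 read −0.04 or higher on every satellite array. The second Oas3 probe read −4, −0.5 and −3.21 there, and the second Mx1 probe was above background on 0 satellite arrays.

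Among membrane-bound effectors, the IFITM proteins hinder the fusion of viruses with cell membranes. Ifitm1 read 1.22, 1.64 and 0.64 on the iPax3 arrays, 1.24, 1.29 and 1.24 on the iPax7 arrays and 2.15, 3.33 and 3.47 on the satellite arrays. Every re-isolated array lay below every satellite array, and the combined difference of −1.77 ± 0.58 did not pass (adjusted p = 0.209). Ifitm3 differed the other way, by 2.07 ± 1.06 combined (adjusted p = 0.39), with satellite values of 4.1, 1.62 and −0.84. Bst2, which encodes tetherin, differed by 0.91 ± 0.66, and Rsad2, which encodes viperin, by 0.48 ± 1.31, while its other kept probe gave −1.89.

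Of the transcription factors, Irf1, a factor induced by interferon gamma, read 5.86, 5.82 and 6.07 on the iPax3 arrays, 6.92, 5.62 and 5.25 on the iPax7 arrays and 4.75, 3.66 and 5.18 on the satellite arrays. The re-isolated arrays lay above the satellite arrays by a narrow margin, and the combined difference of 1.39 ± 0.64 did not pass (adjusted p = 0.335). The second Irf1 probe also had a higher estimate, but its groups overlapped. It read 1.89, 2.74 and −4.32 on the satellite arrays and between 2.19 and 3.61 on the re-isolated arrays. Stat2 differed by 2.53 ± 1.37 combined and was above background on 1 satellite array. Irf7, which amplifies type I interferon production, differed by 0.06 ± 0.94, and Irf8, a factor of myeloid cells, by 0.05 ± 0.94. Isgf3g, which encodes IRF9, differed by −1.78 ± 1.39. Socs1, which inhibits the JAK kinases, read 1.13, −0.27 and −1.06 on the iPax3 arrays, 2.02, 0.12 and 0.12 on the iPax7 arrays and −1.67, 0.02 and −0.18 on the satellite arrays, and differed by 0.95 ± 0.78 combined.

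The comparison between the lines asked whether iPax7 cells differed from iPax3 cells. In limma's test 0 of 37 members and 0% of all genes passed, while 2 members, Mx2 and Oas2, had an unadjusted p under 0.05 (4.1% of all genes did). The median of the members was 0.26, against 0.07 over all genes, and 23 of 37 estimates were higher (53.3% of all genes). All iPax7 arrays lay above all iPax3 arrays for 6 members (4.46% of all genes), which were Iigp1, Irgm, Gbp4, Ifit1, Mx2 and Cxcl9, and below for 1 (4.89%), Cxcl11. Mx2 was 1.82 ± 0.71 higher in iPax7 cells, Iigp1 1.88 ± 0.96 and Cxcl9 1.88 ± 1.27, whereas Cxcl10 differed by −0.01 ± 1.08. For Iigp1, Cxcl9 and Cxcl10, standard errors between 0.96 and 1.27 leave room for differences of either sign. Mx2 had an unadjusted p of 0.0294 in limma's test and did not pass after adjustment. These values do not show the lines to be alike. The mean level of endothelial markers was higher on all iPax7 arrays (−1.62 to −0.17) than on all iPax3 arrays (−4.2 to −3.18). The satellite arrays (−2.7 to −0.34) also lay above the iPax3 arrays and overlapped the iPax7 arrays. The part of this level in the differences between the lines was not tested.

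The spread within groups sets what could be called. The median SD over the tested members was 0.94 in iPax3, 1.03 in iPax7 and 1.46 in satellite cells, beside 0.88, 1.03 and 1.26 over all genes. Of 13 members with several probes, 10 had more than 1 kept, and in both lines combined all kept probes of 5 of these had the same sign. Data were simulated over the 22700 genes with both lines raised against satellite cells, in 67 genes by 2 log2 units, 67 by 4 and 66 by 8. The test found 0%, 8.96% and 69.7% of these. In that setting, differences of the size seen in most members were mostly not detectable with 3 arrays a group. Fewer genes were changed there than the 236 called with both lines combined. The adjustment depends on that number, so the shares found may differ in the measured data.

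The other genes of the interferon pathway were taken from lists of ligands, receptors and kinases, sensors and adaptors, negative regulators and further induced genes. These lists were chosen with earlier results of these data known. Of 112 listed genes 96 were tested. In each line 2 rose and 0 fell (0.361% of all genes rose in the iPax3 and 0.436% in the iPax7 comparison), and with both lines combined 3 rose and 0 fell (0.802% of all genes rose), all of them among the 51 tested genes of the further induced group. Ifi204, which encodes a DNA-binding protein of the HIN-200 family, read 3.81, 3.72 and 4.29 on the iPax3 arrays, 4.37, 4.47 and 4.05 on the iPax7 arrays and −1.5, −1.5 and −1.45 on the satellite arrays. The groups lay far apart with little spread inside them, and Ifi204 rose by 5.42 ± 0.6 in iPax3 cells (adjusted p = 0.00752) and by 5.78 ± 0.6 in iPax7 cells (adjusted p = 0.00462).

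Ifi205, of the same family, read 5.05, 4.4 and 5.74 on the iPax3 arrays, 6.09, 5.11 and 5.14 on the iPax7 arrays and −0.32, −2.41 and −3.34 on the satellite arrays. It rose by 7.09 ± 0.89 in iPax3 cells (adjusted p = 0.0137) and 7.47 ± 0.89 in iPax7 cells (adjusted p = 0.00892). The combined calls of Ifi204 and Ifi205 held whichever array was left out and under each of 11 other settings, while in iPax3 cells Ifi204 was lost without iPax3 replicate 1 (adjusted p = 0.0549) or 3 (0.069). Ifi205 was lost in iPax3 cells without iPax3 replicates 1 (0.0783), 2 (0.0545) or 3 (0.0917) or satellite replicate 2 (0.0643), and in iPax7 cells without iPax7 replicate 1 (0.0532). In iPax3 cells the slide as a random block (Ifi204 0.0625, Ifi205 0.0776) ended both calls, the replicate block that of Ifi204 (0.0553), and the scan day (0.0576) or a fit of only the groups compared (0.0537) that of Ifi205, which such a fit also ended in iPax7 cells (0.0523). Slfn5, a Schlafen gene, rose with both lines combined by 7.15 ± 1.37 (adjusted p = 0.0493), with satellite values of 0.71, −6.07 and −5.86, and this call held without satellite replicate 1 (adjusted p = 0.00136) and was lost without any other single array (0.088 to 0.179). It was also lost without the background filter (0.0544), with the slide (0.197) or scan day (0.224) as a random block and with the replicate block (0.0686), and the difference was 4.16 with normexp, while satellite replicates 2 and 3 were not well above background.

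**Figure D4:**
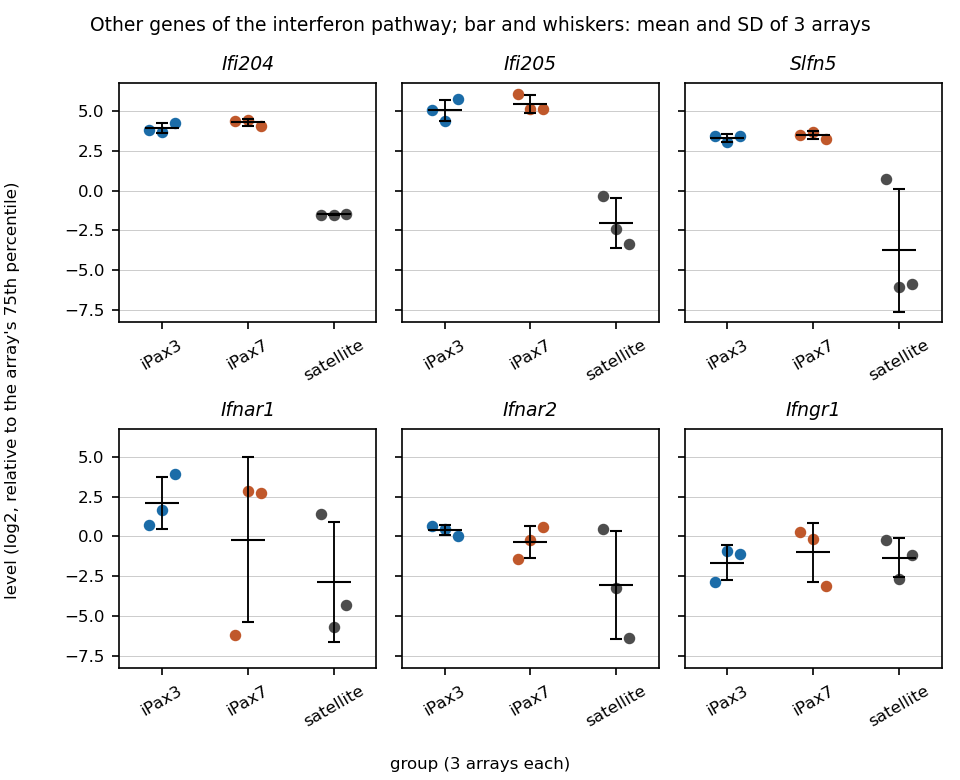
Levels of 6 other genes of the interferon pathway on each array (points), in log2 relative to the array's 75th percentile, with the mean and SD of the 3 arrays of each group. Ifi204 and Ifi205 separate the re-isolated from the satellite arrays, Slfn5 does so with 1 satellite array far above the other two, and Ifnar1, Ifnar2 and Ifngr1 overlap between groups.

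The receptor chains, kinases and interferons named here did not pass in either direction. The type I receptor chains Ifnar1 and Ifnar2 differed by 3.81 ± 2.24 (adjusted p = 0.443) and 3.08 ± 1.28 (adjusted p = 0.304), and the type II chains Ifngr1 and Ifngr2 by 0.02 ± 0.96 and −0.94 ± 0.95. Jak1 differed by 2.16 ± 1.14 and Tyk2 by 2.8 ± 1.6. Of the 16 listed interferon genes 9 were tested, with combined differences from −1.46 for Ifna9 over −1.21 for Ifna13 to 1.08 for Ifnab, and several of these genes are near-identical copies that a probe may not tell apart.

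Among the sensors and adaptors, 0 of 15 passed, and the 3 with the smallest p were Zbp1, a sensor of nucleic acids (−2.7 ± 1.01), Tlr4, the receptor for bacterial lipopolysaccharide (1.98 ± 1.16), and Sting1, an adaptor of DNA sensing (−1.04 ± 0.66). Of the negative regulators 0 of 12 passed, and the 3 with the smallest p were Socs3, an inhibitor of JAK signalling (2.68 ± 1), Rnf125, a ubiquitin ligase for RIG-I (2.97 ± 1.42), and Ptpn2, a phosphatase that acts on JAK and STAT proteins (−1.88 ± 0.93). The median combined difference over the 96 genes was 0.45, beside 0.57 for the members and −0.16 for all genes.

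Cell type markers were measured on the same arrays, since in bulk samples fewer cells of a type and less RNA per cell cannot be told apart. Satellite cell markers had a mean level between 3.46 and 4.05 on the satellite arrays and between −0.88 and 0.49 on the re-isolated arrays. Of these markers 7 of 7 were lower, and Chrdl2 and Heyl fell with both lines combined (0.238% of all genes fell), while the other 5 did not pass. Markers of fibro-adipogenic progenitors and fibroblasts had a mean between 4.04 and 5.72 on the re-isolated arrays and between −0.63 and −0.06 on the satellite arrays. Of these 10 markers 10 were higher and 9 rose with both lines combined (0.802% of all genes rose), Dcn by 8.71 ± 0.65 (adjusted p = 0.000726). Both marker lists were chosen with earlier results of these data known. The counts therefore describe the listed genes and are not an independent test. The part of the cells that carry these markers in the values of Cxcl10, Iigp1, Ifi204 and Ifi205 was not tested.

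None of the white blood cell markers passed the test, and some did not overlap between groups. In iPax3 cells 2 of 7 pan-leukocyte and 1 of 3 neutrophil markers lay above all satellite arrays (8.6% of all genes did), and 0 lay below (10.4%). In iPax7 cells 1 of 7 pan-leukocyte and 2 of 12 T and NK cell markers lay above (7.63%). There 1 marker each of macrophages, neutrophils, B cells and dendritic cells lay below all satellite arrays (8.89%). The 7 pan-leukocyte markers had mean levels between −1.99 and 0.66 on the re-isolated arrays and between −3.34 and −1.1 on the satellite arrays, with 0 called. In iPax3, iPax7 and both lines alike, 4 of the 7 had higher and 3 had lower estimates. Ptprc, which encodes CD45, read −3.66, −3.9 and −3.42 on the iPax3 arrays, 2.01, 0.55 and −3.73 on the iPax7 arrays and −5.36, −2.26 and −3.76 on the satellite arrays. Cd52 lay between 0.19 and 5.71 on the re-isolated arrays, above all satellite arrays (−3.78 to −2.4), with a difference of 5.94 ± 1.19 combined (adjusted p = 0.0596). Laptm5 lay above the satellite arrays on all iPax3 arrays. The mean of the 8 macrophage and monocyte markers lay between −1.86 and −0.43 on the re-isolated and between −1.02 and −0.5 on the satellite arrays, with 4 of 8, 3 of 8 and 3 of 8 higher in iPax3, iPax7 and both lines. The 12 T and NK cell markers had means between −1.94 and −0.67 and between −3.41 and −1.34, with Gzmb at 5.13 ± 1.81 (adjusted p = 0.24). Gzmb and Nkg7 lay above the satellite arrays on all iPax7 arrays. Of the 12 T and NK cell markers, 6, 7 and 8 had higher estimates in iPax3, iPax7 and both lines, and 6, 5 and 4 lower. The medians were 0.22, 0.4 and 0.38.

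No neutrophil (3 tested), B cell (5), dendritic cell (5) or endothelial (9) marker passed in limma's test, where 0, 0, 0 and 1 of them had an unadjusted p under 0.05 with both lines combined. Their mean levels lay between −2.42 and −0.87, between −2.01 and −0.22, between −2.6 and −1.68 and between −4.2 and −0.17 on the re-isolated arrays. The endothelial markers had array means that did not overlap between the lines, between −4.2 and −3.18 for iPax3 and between −1.62 and −0.17 for iPax7. The satellite means, between −2.7 and −0.34, overlapped those of iPax7 and lay above those of iPax3. Against satellite cells 8 of 9 markers had lower estimates in iPax3 cells, and 4 lay below all satellite arrays (10.4% of all genes did). In iPax7 cells 4 of 9 were lower and 5 higher. In iPax7 minus iPax3 cells 8 of 9 had higher estimates (53.3% of all genes did) with a median of 2.29, and 3 had an unadjusted p under 0.05, Tek (8.5 ± 1.88), Lyve1 (4.95 ± 1.24) and Cldn5 (3.54 ± 0.85), while 0 passed in limma's test (adjusted p = 0.71 or higher). The part of all these cells in the values of the interferon response genes was not tested.

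**Figure D5:**
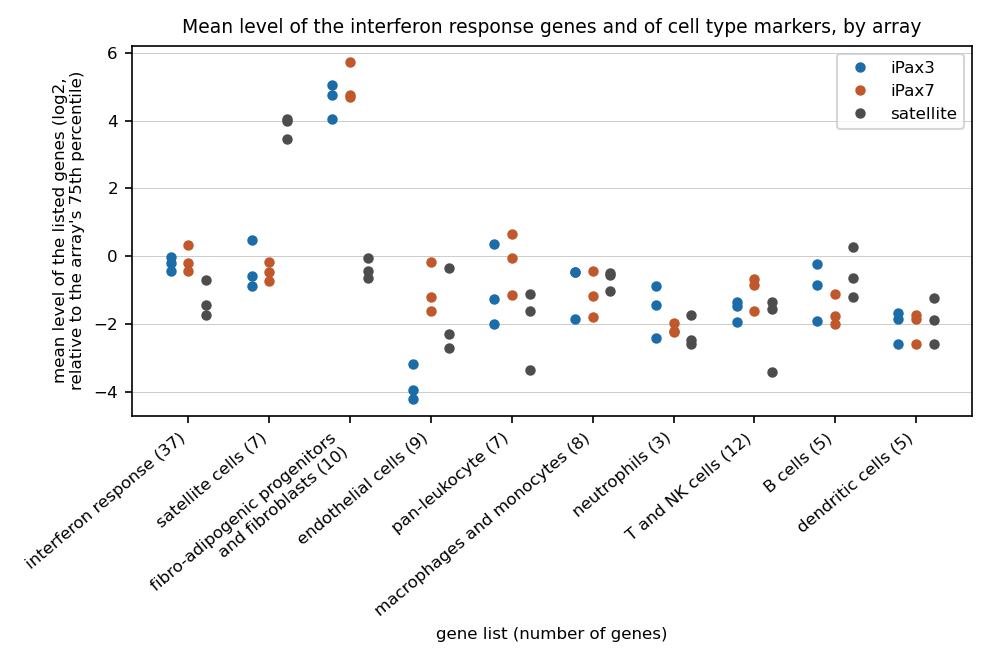
Mean level of the 37 tested interferon response genes and of each list of cell type markers (number of genes in brackets) on each array (points), in log2 relative to the array's 75th percentile. The interferon response genes average between −0.43 and 0.34 on the re-isolated arrays and between −1.73 and −0.7 on the satellite arrays, while the markers of fibroblasts and of satellite cells lie far apart between these groups.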

How the data were processed

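RNA from sorted cells had been amplified and labelled with Cy3, per the labels' protocols, and hybridised to 9 Agilent single-colour arrays. The deposited scanner files hold spot intensity from Agilent Feature Extraction (version 10.5.1.1 in the file headers), which had subtracted the background. A deposited table of log2 values by the authors, with limma named in the submitters' processing notes, was used as an alternative.

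Control spots and outlier spots were left out, log2 of the processed signal was set relative to the 75th percentile of each array, and spots of a probe were averaged. Probes had to clear the background limit on 3 or more arrays, and a gene was read by its kept probe with the highest mean level. Names came from the RefSeq gene table by accession (24375 of 41174 probes), symbol (6301) or synonym (2426), and otherwise from the files (8072). Groups were compared in 1 linear model over the 9 arrays with limma 3.58.1 in R 4.3.3, with Benjamini-Hochberg adjustment over 22700 genes and a threshold of 0.05. No array spot was saturated, and the number of arrays limits the precision. The test was tested on simulated data. The members and gene lists were chosen with earlier results of these data known. By a rule, the text names in each comparison the members that pass, up to 10 in order of p and the brightest of each role, and of each pathway list the genes that pass, the receptor chains and the 3 with the smallest p. 1 gene that the rule also names is not reported here.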

Additional observations from a re-analysis of the deposited data

How the results depend on the processing

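Of 1397 values of the members named in each comparison under the alternatives, 34 lost and 16 gained a call, and 50 turned sign, all of them differences that were not called either way. Irgm turned to 1.5, 1.07 and 1.28 with normexp in iPax3 cells, iPax7 cells and both lines, to 2.26, 1.48 and 1.87 with quantile normalisation, to 1.9, 1.28 and 1.59 with the deposited table and to 0.31, 0.67 and 0.49 when its probes were averaged. Its difference between the lines turned to −0.42, −0.78 and −0.63 with normexp, quantile normalisation and the deposited table. Ifi35 in iPax3 cells turned to −0.24 with median scaling and −0.13 with the slide block. Between the lines, Cxcl10 turned to 0.17 and Mx1 to 0.07 with median scaling, and with the slide block Cxcl10 turned to 0.4, Mx1 to 0.19 and Gbp2 to −1.26. Irf1 turned to −0.29 with quantile normalisation, −0.26 with the deposited table and −0.27 with averaged probes, which also turned Ddx58 to −0.31. Over the other settings Cxcl11 ran from −0.35 to 0.58 in iPax3 cells, Isg20 from −0.02 to 0.45 and Mx2 from −0.11 to 0.13 in iPax7 cells, and Ifitm1 from −0.07 to 0.26 between the lines. With an array left out, differences that crossed 0 included −0.51 to 1.07 for Ifi35 and −0.06 to 1.04 for Socs1 in iPax3 cells, −1.06 to 0.28 for Irgm in iPax7 cells and −0.14 to 1.43 for Ifi35 in both lines. Also crossing 0 were Isg20 in both lines (−1.49 to 0.1) and in iPax7 cells (−0.69 to 0.89), and Mx2 (−0.15 to 0.3) and Oas2 (−1.19 to 3.49) in iPax7 cells. Between the lines they ran over −0.18 to 0.32 for Ifitm1, −0.47 to 0.42 for Cxcl10, −0.73 to 1.99 for Gbp2, −0.1 to 0.99 for Ifitm3, −0.48 to 0.35 for Irf1, −1.11 to 0.28 for Isg15, −0.4 to 0.2 for Mx1 and −0.18 to 0.62 for Oas1a.

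The number of members called in iPax3 cells (0) was 1 with quantile normalisation, 1 with the deposited table, 1 when the probes of a gene were averaged and 1 with limma's trend and robust options, and 0 to 3 with an array left out. In iPax7 cells (1, Cxcl10) it was 1 with normexp, where Iigp1 was called and Cxcl10 was not, 2 under each of the 4 settings just named for iPax3 cells, and 0 with median scaling, without the background filter, with only probes above background on all 9 arrays, with the slide or scan day as a random block, with only the groups compared and with each probe on its own, and 0 to 3 with an array left out. In both lines combined (2) it was 1 with normexp, median scaling or each probe on its own, 0 with probes above background on all 9 arrays and with the slide or day block, and 0 to 3 with an array left out. Without satellite replicate 1 it was 3 in each of these comparisons. Cxcl10 in iPax7 cells was called in 4 of 11 alternatives and in 1 of 9 fits with an array left out.

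Over all genes, the calls in iPax3 cells (98) were 59 with median scaling, 186 with the deposited table, 14 with the slide block, 27 with the day block and 56 with only the groups compared, and 19 to 452 with an array left out. In iPax7 cells (121) they were 74, 196, 43, 36 and 38 under these settings, 76 with probes above background on all 9 arrays, and 35 to 490 with an array left out. In both lines combined (236) they were 133 with median scaling, 47 with the slide block, 43 with the day block, and 75 to 692 with an array left out. Between the lines (0) they were 1 with quantile normalisation, the mean of probes or the slide block, and 0 with any array left out.

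The median member difference in iPax3 cells (0.54) was 0.14 with median scaling, 0.86 with the deposited table, 0.93 with the mean of probes, 0.88 with the slide block and −0.11 over the 21 members above background on all 9 arrays, and 0.48 to 1.14 with an array left out. In iPax7 cells (0.75) it was 0.41 over those 21 members, and 0.43 to 1.1 with an array left out. In both lines combined (0.57) it was 0.9 with quantile normalisation, 0.26 with median scaling, 0.89 with the deposited table and 0.22 over those 21 members, and 0.54 to 0.87 with an array left out. Between the lines it was 0.03 to 0.28 with an array left out. The cause of these changes was not tested, apart from fewer members or arrays where the setting removes them.

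Deviations from the group means correlated between −0.129 and 0.0624 for same-numbered arrays of different groups, and between −0.0942 and 0.177 for the other pairs. With 3 arrays a group these values cannot settle whether the replicate numbers pair the arrays. With the replicate block 0 members were called in iPax7 cells and 1 in both lines, and 37, 55 and 115 of all genes in iPax3 cells, iPax7 cells and both lines.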
